A study of Mus musculus with 6 samples.

Results

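The kynurenine pathway genes Tdo2, Afmid, Kmo, Kynu, Haao, Acmsd and Qprt were described in livers of newborn mice labelled Igf2 KO (knockout) and of wild-type (WT) newborns. All probes that the platform annotation assigns to these 7 of 19057 genes were taken, which gave 15 of the 45281 probes on each array. The genes were chosen with their difference between knockout and WT in these arrays already known, so that difference is described here without a test. Total RNA of whole liver was measured on 6 Illumina BeadChips, 3 labelled wild type and 3 labelled Igf2 KO. The mice of both groups were newborn and of mixed 129/ c57Bl/6 strain. The product of Igf2 is insulin-like growth factor 2, a growth hormone of the fetus that fetal liver makes in large amounts. What was deleted from Igf2 is not in the labels, nor is it stated that arrays hold separate pups or litters, so the p-values given for other genes measure only the spread between these samples.

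The kynurenine pathway is the main route by which the body breaks down tryptophan, and in the liver it also supplies NAD. Tryptophan 2,3-dioxygenase (TDO, from Tdo2), a heme enzyme best known from hepatocytes, opens the indole ring. The formamidase of Afmid then releases kynurenine, the monooxygenase of Kmo adds a hydroxyl group, the kynureninase of Kynu cleaves the side chain and the dioxygenase of Haao opens the second ring. At the product of that step the route forks. The decarboxylase of Acmsd draws the intermediate toward complete oxidation, whereas the intermediate that escapes it closes to quinolinate, which the phosphoribosyltransferase of Qprt turns into an NAD precursor. TDO is a classical example of an enzyme induced by glucocorticoids, and in rats its activity is known to be low in fetal liver and to appear after birth.

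The DNA before the start of Tdo2, which had a large difference, and of Qprt, at the fork of the route, is shown because results turn on these genes. The letters are the 250 bases before each annotated start, from RefSeq on GRCm38.p6, 5′ to 3′ on the strand of the gene, and the windows of 5 of the 7 genes (Tdo2, Afmid, Kmo, Haao and Qprt) were searched. The window of Tdo2 is chr3:81975729-81975978 on the minus strand and that of Qprt is chr7:127122030-127122279 on the minus strand. Capitals mark matches on either strand to the motifs AGGTCA (a nuclear receptor half-site), AGAACA (a glucocorticoid receptor half-site), CCAAT and TATAAA, which do not overlap one another here, or to the palindromic glucocorticoid element, GNACA and TGTNC with 3 bases between them, which can overlap AGAACA.
Tdo2: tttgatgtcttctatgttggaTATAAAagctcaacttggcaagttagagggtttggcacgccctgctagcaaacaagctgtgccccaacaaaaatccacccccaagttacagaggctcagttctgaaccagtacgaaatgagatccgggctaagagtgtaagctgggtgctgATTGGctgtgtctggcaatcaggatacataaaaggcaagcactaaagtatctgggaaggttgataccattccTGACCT
Qprt: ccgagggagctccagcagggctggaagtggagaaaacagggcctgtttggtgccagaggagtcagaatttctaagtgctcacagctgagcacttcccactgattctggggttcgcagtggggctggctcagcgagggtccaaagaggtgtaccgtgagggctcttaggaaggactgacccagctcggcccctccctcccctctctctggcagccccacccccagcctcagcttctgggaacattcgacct
Tdo2 held AGGTCA on the reverse strand ending just before the start, CCAAT on the reverse strand beginning at -78 and TATAAA at -229. Qprt held none of the motifs. AGGTCA was found before 2 of the 5 genes (Tdo2 and Haao), against 14.0% of the 32851 windows in the table. AGAACA was found before 1 of the 5 (Haao; 16.1% of all windows), CCAAT before 1 (Tdo2; 33.8%), TATAAA before 1 (Tdo2; 12.4%) and the palindromic element before none of the 5 (0.387%). A match describes letters in these windows and shows no binding.

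Values are given as deposited intensity, the brightness of a probe after background subtraction by the authors, and as log2 intensity after a further normexp background correction and quantile normalization. A probe counted as detected on an array when its deposited detection p was under 0.05, which held for 46.3% to 49.9% of probes. Igf2 had a deposited intensity of 19805, 19195 and 18656 on WT arrays 1, 2 and 3 and of 9337, 11866 and 9676 on knockout arrays 1, 2 and 3. The knockout arrays were lower without overlap, with a log2 difference of -0.91 ± 0.11 (SE). The position of the probe relative to the deleted part was not analysed here, so whether the remaining signal is intact transcript is unknown. All 10 hepatocyte markers were detected on every array, with a summed intensity of 138352 to 141812 in WT and 140097 to 143067 in the knockout. Bright probes dominate this sum, and its members went both ways. Apob had a log2 difference of -0.42 ± 0.082 (SE) and Cps1 of 0.47 ± 0.11 (SE). Knockout arrays 1 and 2 stood apart. They held transcripts of lung, with all 10 lung markers detected on each and summed intensities of 8929 and 23241, against 691.5 (5 markers detected) on knockout array 3 and 642.7 to 742.5 in WT (3 detected). The sum does not show that knockout array 3 was free of lung transcripts. Sftpc and Scgb1a1 were detected on it, at 66.4 and 42.9, but on no WT array (1.6 to 10.7 and -2.6 to 8.1). Ager was also above its WT values there, at 105.3, whereas Sftpd, at 62.4, was below them (136.1 to 174.5). The intensity of Xist was 1018 on WT array 1 and 1984 and 1823 on the first 2 knockout arrays, against 4.1 to 17.9 on the others. All 3 Y-linked genes with a probe were detected on every array, including those with high Xist. The sex of the samples was not tested. Values of knockout array 3 alone are therefore given beside those of all arrays, and fits with the lung markers or Xist as a covariate are given further on. In whole-liver RNA, fewer cells of a type and less RNA per cell cannot be told apart.

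Of 11346 genes tested, 16.7% passed an adjusted p of 0.05 in limma, 8.23% higher and 8.49% lower in the knockout. Arrays of the groups did not overlap for 20.8% of genes in the higher direction and 18.3% in the lower direction. All 7 pathway genes passed the filter on dim probes. Tdo2, Kmo and Acmsd were past that threshold upward and Kynu, Haao and Qprt downward, and in each of these 6 genes the groups did not overlap. Nothing is read from these counts, since the genes were chosen on this contrast. The 3 genes that were higher open the route, lead to 3-hydroxykynurenine and draw the intermediate away from NAD. The 3 that were lower lie on the line from 3-hydroxykynurenine to the NAD precursor. These positions describe genes chosen on this contrast, and no pattern along the route was tested. Afmid, between Tdo2 and Kmo, had no common direction over its probes.

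**Figure D1:**
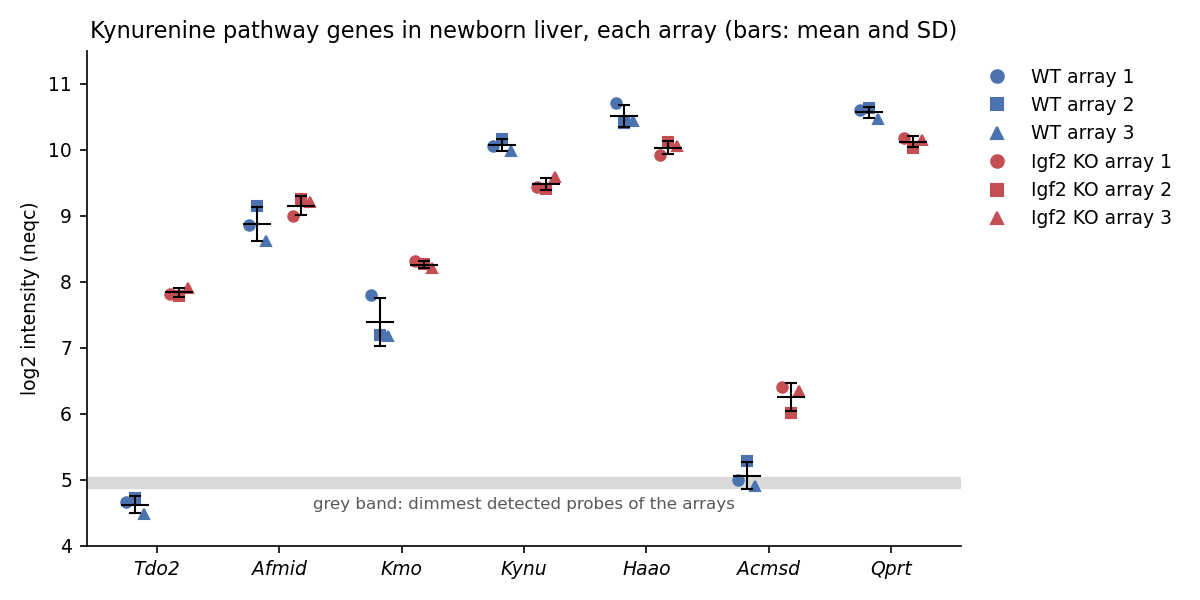
Log2 intensity of the probe that stands for each gene, on each of the 3 WT (blue) and 3 Igf2 knockout (red) arrays, with bars for the mean and SD. In WT, Tdo2 and Acmsd lie near the grey band of the dimmest detected probes, and the groups overlap only for Afmid. Levels of different genes come from different probes and are not comparable.

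Tdo2 was not above background in WT liver and was clearly measured in every knockout liver. The deposited intensity of its single probe was 5.7, 8 and -1.3 on WT arrays 1, 2 and 3, with detection p-values of 0.152, 0.119 and 0.475. On knockout arrays 1, 2 and 3 it was 209, 205 and 225, with a detection p of 0 on each. The 3 knockout values lay within a narrow range and all far above the 3 WT values. On the log2 scale WT had 4.62 ± 0.13 and the knockout 7.84 ± 0.064 (SD, n = 3 each), a difference of 3.22 ± 0.10 (SE). Because the WT arrays give only an upper limit, the fold change is a bound. Set against the dimmest probe detected on each WT array, the knockout level of Tdo2 was at least 7.27-fold higher. Knockout array 3, with the least signal of lung markers among the knockout arrays, lay 3.29 above the WT mean, against 3.19 and 3.17 for arrays 1 and 2.

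The other enzymes known to open the indole ring, the indoleamine dioxygenases of Ido1 and Ido2, were not detected on any of the 6 arrays. The probe of Ido1 had intensities of -4.8 to -0.1 over all arrays. That of Ido2 had 0.9, 1 and 1.5 in WT and 5.8, 6.2 and 4.4 in the knockout. These values of Ido2 did not overlap between the groups, but all lay below detection, so no fold is given. Each of the genes has 1 probe, and a probe below detection does not show that a transcript was absent.

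Afmid encodes the formamidase that turns N-formylkynurenine into kynurenine. Its 7 probes had log2 differences from -0.21 to 0.28 between knockout and WT, 3 of them above 0 and 4 below. The groups overlapped on each of the 7 probes. The probe that stands for the gene had intensities of 450, 549 and 377 on WT arrays 1, 2 and 3 and 494, 595 and 576 on knockout arrays 1, 2 and 3, a log2 difference of 0.28 ± 0.15 (SE). WT array 3 was the lowest WT array on all 7 probes, and the WT arrays were spread more widely than the knockout arrays on each of them. With the mean of the probes in place of the brightest probe the difference was -0.040. In the table with detection p-values, all 7 probes carry the ID of 1 Afmid probe. Their naming rests on the series table, and both tables assign them to Afmid.

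Kmo encodes kynurenine 3-monooxygenase, an enzyme of the outer mitochondrial membrane. Its probe had an intensity of 208, 130 and 128 on WT arrays 1, 2 and 3 and of 301, 291 and 279 on knockout arrays 1, 2 and 3. The knockout arrays were close to each other and all above the WT arrays, of which array 1 was the highest. The mean log2 intensity was 7.39 ± 0.36 in WT and 8.26 ± 0.051 in the knockout (mean ± SD, n = 3 each), a difference of 0.87 ± 0.17 (SE). Knockout array 3 alone lay 0.82 above the WT mean. Kmo is also known from macrophages and kidney. Of 11 macrophage markers with a probe 10 were detected on every array, with a summed intensity of 12152 to 15216 in WT and 11749 to 12497 in the knockout, and their part in the level of Kmo was not tested. Of 9 kidney markers with a probe, 2 were detected on each array, with sums of 62.9 to 80 in WT and 72.8 to 95.4 in the knockout.

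Kynu encodes kynureninase, which depends on pyridoxal phosphate. Its probe had an intensity of 1053, 1134 and 992 on WT arrays 1, 2 and 3 and of 680, 665 and 751 on knockout arrays 1, 2 and 3. All knockout arrays were lower than all WT arrays, and 65.9% of the WT mean was left. The log2 intensity was 10.07 ± 0.095 in WT and 9.48 ± 0.092 in the knockout (mean ± SD, n = 3 each), a difference of -0.59 ± 0.095 (SE). Knockout array 3 was the least changed, at -0.49 against the WT mean.

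Haao encodes 3-hydroxyanthranilate 3,4-dioxygenase, whose product is the substance at the fork. It has 3 probes, and on each of them the groups did not overlap. The probe that stands for the gene had an intensity of 1659, 1336 and 1369 on WT arrays 1, 2 and 3 and of 955, 1092 and 1051 on knockout arrays 1, 2 and 3. Its log2 difference was -0.48 ± 0.11 (SE), the smallest of the 3. The brighter of the other probes had a difference of -0.69 ± 0.12 (SE) and the dimmer one of -0.68 ± 0.13 (SE). The brighter had intensities of 1675, 1540 and 1244 in WT and 910, 912 and 910 in the knockout, so its knockout arrays were nearly equal. The dimmer had 672, 594 and 510 in WT and 322, 409 and 355 in the knockout. Over the 3 probes, 61.1% to 71.0% of the WT intensity was left.

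**Figure D2:**
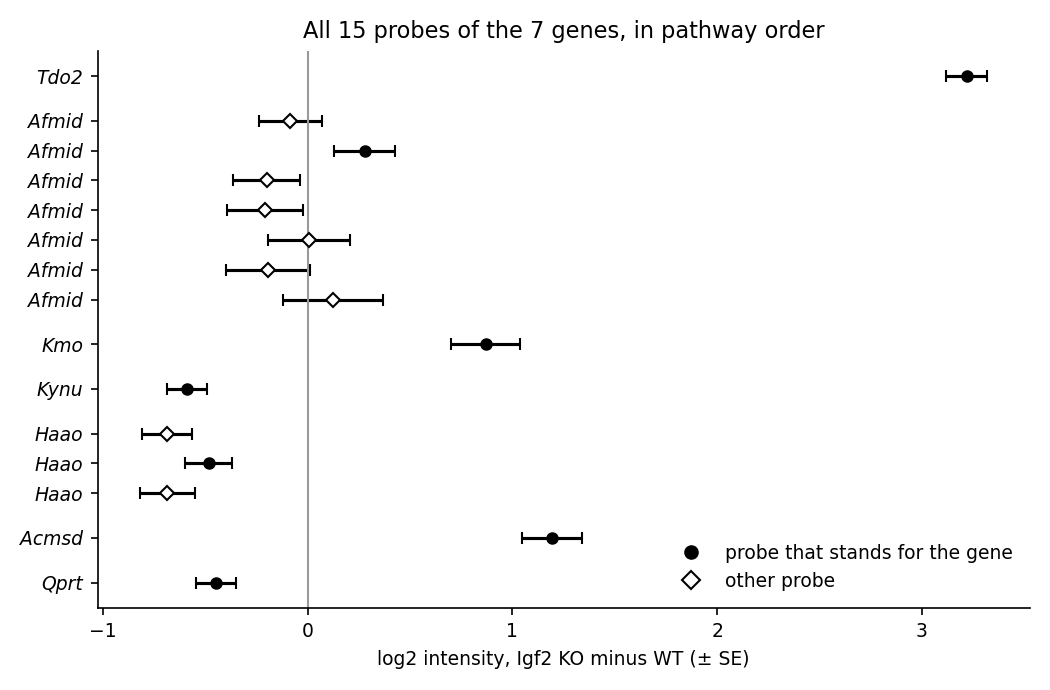
Difference in log2 intensity between Igf2 knockout and WT (n = 3 each) for each of the 15 probes, with the SE of the fit over all probes. The 3 probes of Haao lie between -0.69 and -0.48, and the 7 probes of Afmid lie on both sides of 0.

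At the fork, Acmsd and Qprt differed in opposite directions. Acmsd encodes the decarboxylase that commits the intermediate to oxidation, and Qprt the enzyme that commits quinolinate to NAD. Acmsd had an intensity of 15.5, 23.2 and 12.8 on WT arrays 1, 2 and 3 and of 69.2, 48.5 and 65.7 on knockout arrays 1, 2 and 3. It was detected on 2 of 3 WT arrays, with detection p-values of 0.034 and 0.013, and not on WT array 3 (0.064), whereas all knockout arrays were above detection and above all WT arrays. Its log2 intensity was 5.06 ± 0.20 in WT and 6.25 ± 0.22 in the knockout (mean ± SD, n = 3 each), a difference of 1.19 ± 0.15 (SE). The mean deposited intensity was 17.2 ± 5.4 in WT and 61.1 ± 11.1 in the knockout, a ratio of 3.56. The difference of 1.19 is a 2.29-fold change on a scale with 16 units added before the logarithm, which makes changes of dim probes look smaller, and neither ratio is exact so close to background. Knockout array 3 lay 1.29 above the WT mean. Acmsd is known from kidney as well as liver. Of the 9 kidney markers with a probe, Slc12a1 and Lrp2 were detected on all 6 arrays and the other 7 on none. Slc12a1 had intensities of 29.6 to 35.4 in WT and 32.1 to 36.2 in the knockout. Lrp2 had 21.9, 25.6 and 27.6 on WT arrays 1, 2 and 3 and 33.1, 51.7 and 19.5 on knockout arrays 1, 2 and 3, so its groups overlapped. Umod, Slc34a1 and Kap, which define tubule segments, had intensities of -2.2 to 5.5, -8.6 to 2.1 and -6.7 to -1.6 over all arrays. The part of kidney transcripts in the level of Acmsd was not tested.

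Qprt had an intensity of 1545, 1566 and 1401 on WT arrays 1, 2 and 3 and of 1148, 1027 and 1123 on knockout arrays 1, 2 and 3. No knockout array reached the lowest WT value, and 73.1% of the WT mean was left. Its log2 difference was -0.45 ± 0.092 (SE), and knockout array 3 alone lay at -0.41 against the WT mean. Within an array, the log2 intensity of Acmsd minus that of Qprt was -5.61, -5.34 and -5.57 on WT arrays 1, 2 and 3 and -3.78, -4.02 and -3.80 on knockout arrays 1, 2 and 3. The level of this difference has no meaning across 2 probes. Its shift of 1.64 between the groups restates the log2 differences of 2 genes chosen on this contrast. Acmsd lay near background in WT, so the size of the shift depends on the offset. The same measure for Kmo minus Kynu, the enzymes that make and use 3-hydroxykynurenine, was -2.26, -2.98 and -2.81 in WT and -1.13, -1.15 and -1.38 in the knockout, a shift of 1.46.

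Over the 19 other settings of the processing and the arrays, Tdo2 had log2 differences of 2.16 to 3.50, Acmsd of 0.71 to 1.36 and Kmo of 0.71 to 1.08. Kynu ranged from -0.64 to -0.47, Haao from -0.62 to -0.39 and Qprt from -0.50 to -0.39, and Afmid was below 0 in 1 of the 19 settings. Which genes were past the threshold is given only to describe how the values depend on the settings, since this contrast chose the genes and Tdo2 passed the filter through the knockout arrays alone. The WT values of Tdo2 lay below detection, so their spread is that of background. Tdo2 and Acmsd were past the threshold in every setting that kept more than 1 array in each group, which adds no support for either. With the level of lung markers as a covariate Kmo, Kynu, Haao and Qprt missed it, as they did with the loss of knockout arrays 1 and 2 together, with the spread of the single knockout array left taken to equal that of WT. Without knockout array 1, Kmo, Haao and Qprt missed it, without WT array 1 Haao and Qprt did, without knockout array 2 Qprt and without knockout array 3 Haao. Haao also missed it with the replicate number as a block, and Qprt with Xist as a covariate.

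Over the 6 arrays, 53 of 11345 other genes had a Pearson correlation of at least 0.99 with Tdo2 in log2 intensity, and the 5 with the highest are described here. All 6 values are shared between the genes, the difference between the groups dominates the correlation, and it carries no test. Slc7a2, a transporter of arginine, lysine and ornithine, had a correlation of 0.9997. Its log2 intensity was 8.47, 8.48 and 8.41 on WT arrays 1, 2 and 3 and 9.86, 9.80 and 9.88 on knockout arrays 1, 2 and 3. Nnmt, which methylates nicotinamide and so removes an NAD precursor, followed with 0.9988, then Cab39l with 0.9987, Ei24 with 0.9985 and Slc25a15, the mitochondrial ornithine carrier, with 0.9979. The log2 difference between knockout and WT was 1.39 for Slc7a2, 4.18 for Nnmt, 0.94 for Cab39l, 1.30 for Ei24 and 1.46 for Slc25a15. With probes named only where both tables give the same ID, the call of Slc7a2 was lost (limma adjusted p = 0.111). The SD within a group was at most 0.17 for each of these genes and at most 0.13 for Tdo2. In WT, Tdo2 was below detection on all 3 arrays and Nnmt was detected on only 2. Their WT spread, and the WT part of the correlations with Tdo2, therefore largely reflects background.

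**Figure D3:**
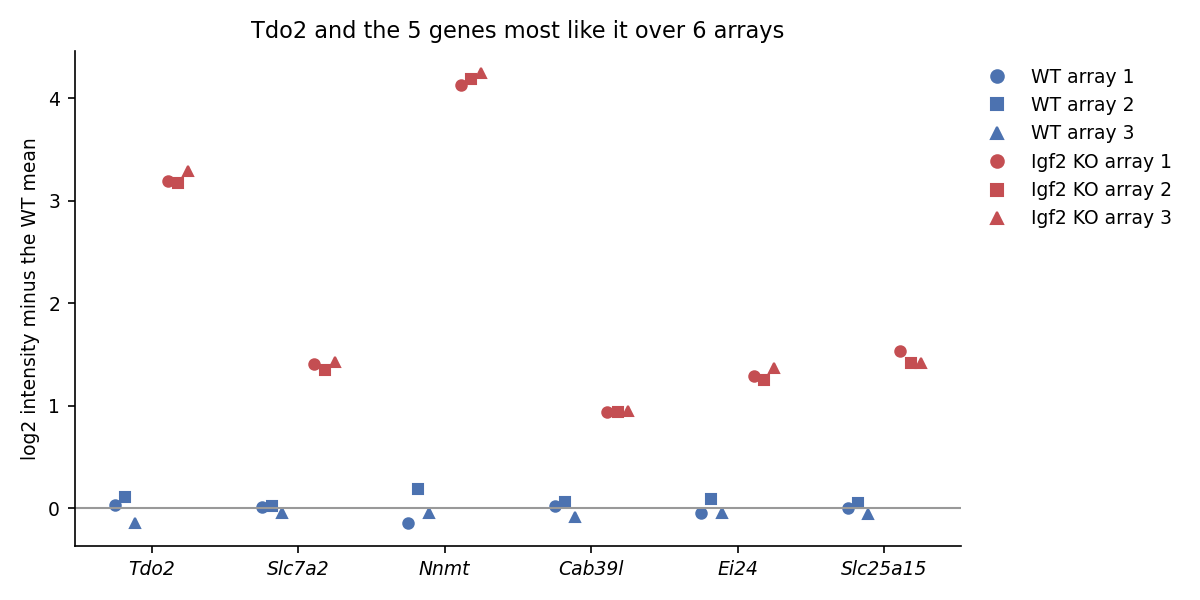
Log2 intensity on each array minus the mean of the WT arrays for Tdo2 and the 5 genes with the highest correlation with it over the 6 arrays (WT blue, Igf2 knockout red). The shift differs between genes, from 0.94 for Cab39l to 4.18 for Nnmt, and arrays of a group lie close together in each. The WT values of Tdo2 lie below detection, so their closeness is that of background.

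Beside the 7 genes, lists of genes around the pathway are given, here and in the paragraphs that follow. Over all genes tested 16.7% were called, 8.23% higher and 8.49% lower. The lists were also chosen with earlier results of these data known, so their counts are a description and test nothing. Of 14 other enzymes of tryptophan and kynurenine, 9 were tested, and 0 rose and 2 fell, with a median log2 difference of -0.27 against 0.022 over all genes. Maob, a monoamine oxidase that degrades tryptamine among other amines, fell by 0.88 ± 0.10 on the log2 scale (SE, limma adjusted p = 0.0019). Kyat1, a kynurenine aminotransferase that makes kynurenic acid, fell by 0.54 ± 0.11 (limma adjusted p = 0.0169). The call of Kyat1 was lost without WT array 1, without knockout array 1 or 2 and with the lung covariate. Besides Ido1 and Ido2, the untested enzymes were Tph1, Tph2 and Maoa, each with 1 probe that was detected on no array. Of 10 genes of tryptophan transport 8 were tested, and 0 rose and 1 fell, with a median of 0.0030. This was Cltrn (collectrin), a partner that amino acid transporters need at the cell surface, which fell by 1.17 ± 0.12 (limma adjusted p = 0.00107). The transporter Slc6a19, which collectrin is known to carry to the surface, had 0.12 ± 0.12.

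The carbon that Acmsd draws off is oxidised through glutaryl-CoA to acetyl-CoA, in steps shared with lysine breakdown and fatty acid oxidation. All 11 genes listed for this route were tested, and 0 rose and 3 fell, with a median of 0.044. Hadh, a hydroxyacyl-CoA dehydrogenase that also serves fatty acid oxidation, fell by 1.35 ± 0.13 (SE, limma adjusted p = 0.00084). Etfdh, which passes electrons to the respiratory chain, fell by 0.64 ± 0.099 (limma adjusted p = 0.0057), and Etfa, a subunit of its electron donor, by 0.30 ± 0.078 (limma adjusted p = 0.040). The call of Etfdh was lost with the mean of its probes, with the lung covariate and with probes named only where both tables give the same ID (-0.17, limma adjusted p = 0.808). That of Etfa was lost without any 1 of the 6 arrays. It was also lost with probes of equal ID, with the replicate number as a block and with the Xist or lung covariate. Aldh8a1, the dehydrogenase that follows Acmsd, had -0.34 ± 0.13 and Gcdh, glutaryl-CoA dehydrogenase, 0.17 ± 0.11, and neither passed.

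Of 28 genes of NAD synthesis, salvage and use, 21 were tested, and 2 rose and 6 fell, with a median of -0.083. Nnmt rose most, from a log2 intensity of 5.03 ± 0.17 in WT to 9.22 ± 0.059 in the knockout (mean ± SD, n = 3 each), but was detected on only 2 of the WT arrays. Nampt, the first enzyme of nicotinamide salvage, rose by 0.55 ± 0.15 (SE, limma adjusted p = 0.045). Its call was lost without WT array 1 or 3, without any 1 knockout array, without the filter, with the mean of its probes and with the Xist or lung covariate (adjusted p up to 0.378). Naprt, which starts NAD synthesis from nicotinic acid and shares its product with Qprt, fell by 0.46 ± 0.088 (limma adjusted p = 0.0131). The call of Naprt was lost without knockout array 1 and with the lung covariate. Nmrk1, a nicotinamide riboside kinase, fell by 0.92 ± 0.16 (limma adjusted p = 0.0081), a call lost with the lung covariate. Nadk2, the mitochondrial NAD kinase, fell by 0.90 ± 0.097 (limma adjusted p = 0.00144) and Aox3, an aldehyde oxidase, by 1.01 ± 0.14 (limma adjusted p = 0.0031). Nadsyn1, the last step from the Qprt product to NAD, had -0.055 ± 0.085 and did not pass. Without knockout arrays 1 and 2 the list held 1 gene higher, Nnmt, and 0 lower. Without WT array 1 it held 1 higher and 4 lower, and without knockout array 1 it held 1 higher and 3 lower.

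**Figure D4:**
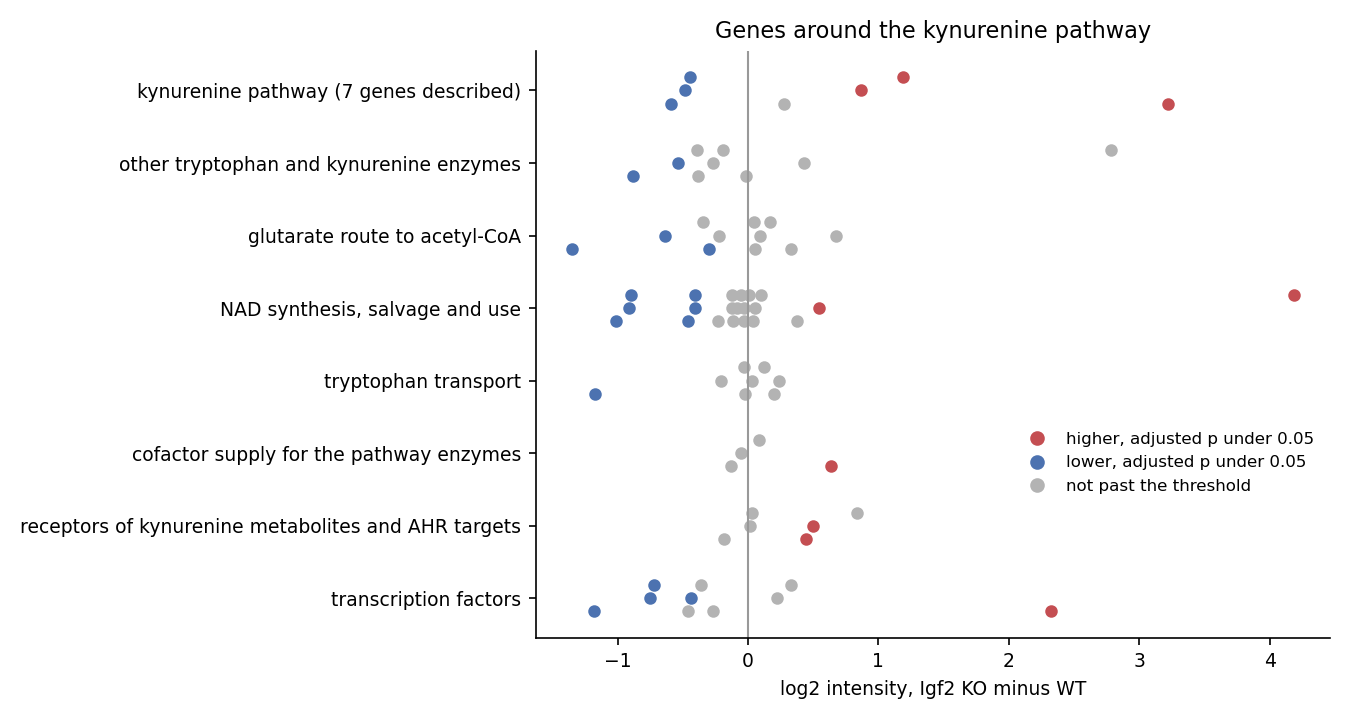
Difference in log2 intensity between Igf2 knockout and WT for each tested gene of the kynurenine pathway and of 7 lists of genes around it. Red and blue points passed a limma adjusted p of 0.05, and the rightmost points are Nnmt at 4.18, Tdo2 at 3.22 and Inmt at 2.78, of which Inmt did not pass.

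Some of the enzymes, though not all, need heme, flavin or pyridoxal phosphate. Of 6 genes that supply these cofactors 4 were tested, and 1 rose and 0 fell, with a median of 0.014. Alas1, which starts heme synthesis in liver, rose by 0.64 ± 0.14 (SE, limma adjusted p = 0.0248). The call of Alas1 was lost without WT array 1 or 2, without knockout array 1 or 3 and with the lung covariate. Kynurenine and kynurenic acid act on the aryl hydrocarbon receptor (AHR) and on GPR35. Of 9 genes of these receptors and of AHR targets 6 were tested, and 2 rose and 0 fell, with a median of 0.24. Nqo1, a quinone reductase, rose by 0.50 ± 0.094 (limma adjusted p = 0.0123) and Cyp1b1 by 0.45 ± 0.092 (limma adjusted p = 0.0174), and without knockout array 1 neither call held. Cyp1b1 also lost its call without WT array 1 or knockout array 2, with an offset of 50 and with either covariate. In WT it lay at 4.94, 5.09 and 4.98, near the dimmest detected probes of those arrays (4.93, 5.03 and 4.96). It was not tested under a stricter detection p of 0.01, nor was Nqo1 with probes of equal ID. The single probes of Ahr itself and of its target Cyp1a1 were detected on no array, which does not show that the transcripts were absent.

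Of 11 transcription factors and coactivators known to act on Tdo2, Acmsd or Qprt, 10 were tested, and 1 rose and 4 fell, with a median of -0.40. Ppargc1a encodes the coactivator PGC-1α, which is known to act with HNF4α and the glucocorticoid receptor in fasting liver. Its log2 intensity was 7.09, 8.18 and 6.62 on WT arrays 1, 2 and 3 and 9.65, 9.71 and 9.52 on knockout arrays 1, 2 and 3. It rose by 2.33 ± 0.35 (SE, limma adjusted p = 0.0049), with all knockout arrays above all WT arrays. The call of Ppargc1a was lost with the lung covariate. Cebpa, a factor of hepatocyte maturity, fell by 1.18 ± 0.20 (limma adjusted p = 0.0079), and Nr3c1, the glucocorticoid receptor gene, by 0.72 ± 0.12 (limma adjusted p = 0.0077). Foxa2 fell by 0.75 ± 0.20 (limma adjusted p = 0.042) and Ppara, which is known to lower Acmsd in rodent liver when activated, by 0.43 ± 0.12 (limma adjusted p = 0.045). The calls of Foxa2 and Ppara were lost without WT array 1 and without any 1 knockout array, and that of Ppara also without WT array 2. Both were also lost without the filter, with the replicate number as a block and with the Xist or lung covariate. Hnf4a had 0.23 ± 0.10 and did not pass. Without knockout arrays 1 and 2, 0 of the 10 passed in either direction.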

How the data were processed

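Biotinylated cRNA was made from liver RNA for Illumina arrays, per the labels' protocols. The authors deposited 2 tables with the same probe intensity values. Although 1 is titled as not normalized, 25.0% to 25.1% of its values on each array are below 0 and between arrays the sorted values are equal to within 0.2, so the deposited intensities were already background-subtracted and normalized; no software or setting is named in the labels. Detection p-values were deposited in 1 table, in steps of 1 in 935. Rows of the tables were joined by their 6 intensities, and probes were named by the ID of the series table (9535 rows had another ID in the other table).

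From these values, limma's neqc (version 3.58.1, R 4.3.3) gave log2 intensities with an offset of 16. This adds a second background correction and leaves log2 differences of dim genes too small. A probe was kept if detected (p under 0.05) on 3 or more arrays, and the brightest kept probe stood for a gene (11346 genes). Groups were compared with lmFit and eBayes, two-sided, with Benjamini-Hochberg adjustment over all genes. Errors are moderated SEs. A bound on a fold compares the mean of the bright group with the dimmest detected probe on each array of the other. The pathway genes and all lists were chosen with earlier results of these data known. Named genes are Igf2, the pathway genes, up to 4 of a list with the smallest p in each direction among those past the threshold, and the 5 most like Tdo2. The rule also named the neighbours of Tdo2 in rank, which are left out because its difference is only a bound. Genes named from a list without passing the threshold were chosen after their values were seen. Of 179 list entries 178 matched a RefSeq symbol or synonym (GRCm38.p6), and the marker lists for erythroid, neutrophil, endothelial and pancreatic cells are given only in the closing section. Probe sequences were not used here. Promoter windows of Kynu and Acmsd are not reported here. The number of arrays limits the precision.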

Additional observations from a re-analysis of the deposited data

How the results depend on the processing

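The 1897 changed genes (934 higher, 963 lower) became 3088 with every probe tested (1801 lower), 3025 with array weights (1591 higher), 1222 with Xist as a covariate (603 higher, 619 lower), 445 with the lung covariate (226 higher, 219 lower) and 228 without knockout arrays 1 and 2 (116 higher, 112 lower). With 1 array left out they ranged from 849 to 1880, with 391 to 953 higher and 458 to 927 lower. No label says whether replicate numbers pair WT and knockout arrays. Deviations of arrays with the same number correlated at -0.0044, 0.028 and 0.015, and not every array correlated best with its own number. With 3 arrays in a group, these values cannot decide whether the numbers mark pairs. With the replicate number as a block 1323 genes changed, the other enzymes of tryptophan held 1 gene higher and the transcription factors 2 lower. Of the pathway genes, 0 were lower with the lung covariate or without knockout arrays 1 and 2, and 1 to 3 with 1 array left out. No normexp moved Tdo2 to 3.50, and an offset of 50 moved it to 2.16 and Acmsd to 0.71.

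For the other enzymes of tryptophan, array weights gave 2 higher, the lung covariate gave 1 lower and the loss of knockout arrays 1 and 2 gave 0 lower. With 1 array left out they had 0 to 1 higher and 1 to 2 lower. The glutarate route had 1 higher with the mean of probes, with the trend model or with array weights, and 1 lower with probes of equal ID, the lung covariate or without knockout arrays 1 and 2. The NAD list had 1 higher with no filter, the mean of probes, the lung covariate or without knockout arrays 1 and 2, and 2 lower with the lung covariate and 0 without those arrays. With 1 array left out it had 1 to 2 higher and 3 to 5 lower. The cofactor list had 0 higher with the lung covariate or without those arrays and 0 to 1 with 1 array left out. The receptor list had 1 higher with an offset of 50, the strict filter or probes of equal ID, 3 with array weights or the replicate block, 0 without those arrays and 0 to 3 with 1 array left out. The transcription factors had 2 higher with an offset of 50, the trend model or array weights, 0 with the lung covariate or without those arrays, and 1 to 2 with 1 array left out. They had 2 lower with no filter, the Xist covariate or the lung covariate, 0 without those arrays and 2 to 4 with 1 array left out. Where fewer arrays or probes entered, the test had fewer values; otherwise the cause was not tested.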

Other observations

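Other marker lists were summed as deposited intensity per array. Erythroid markers summed to 85197 to 85943 in WT and 88609 to 90956 in the knockout, and endothelial markers to 5198 to 6136 in WT and 7037 to 7188 in the knockout, without overlap in either case. Neutrophil markers summed to 58435 to 63048 in WT and 54864 to 57059 in the knockout, also without overlap. Single genes did not all follow the sums. Among tested genes, 4 of 7 erythroid and 3 of 7 endothelial genes were higher in the knockout without overlap, and the others overlapped. Of 8 neutrophil genes, 5 were lower without overlap and 3 overlapped. Over all genes the shares without overlap were 20.8% higher and 18.3% lower. Log2 differences were 0.57 for Lyve1 but -0.093 for Stab2 (endothelial), and 0.32 for Slc4a1 but -0.11 for Alas2 (erythroid). Cell numbers were not tested. Markers of exocrine pancreas summed to 131.9 to 163.3 in WT and 146.8 to 180.2 in the knockout. The 3 Y-linked genes with a probe summed to 1041 to 1271 in WT and 715 to 1187 in the knockout. Inmt, which methylates tryptamine, was chosen after its values were seen. Its log2 intensities spread widely within both groups, with an SD of 1.31 in WT and 1.61 in the knockout. The difference was 2.78 ± 0.87 (SE, limma adjusted p = 0.067). The log2 intensity of Inmt was 10.66 and 11.74 on knockout arrays 1 and 2, which held lung transcripts. On knockout array 3 it was 8.57, close to the 8.56 of WT array 1, the highest WT array. The part of lung transcripts in this difference was not tested.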
